A study of Mus musculus with 74 samples.

Results

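The genes described here are 10 markers of the large-fibre neurons of the dorsal root ganglion (DRG), the proprioceptors and low-threshold mechanoreceptors: Pvalb, Ldhb, Runx3, Etv1, Spp1, Whrn, Cntnap2, Calb1, Esrrg and Heg1. They were chosen by name, and all 10 were found once among the 53379 genes counted in every library. Whole L4 DRG were sequenced from 4 uninjured mice and from 4 mice 1 day after spinal cord injury (SCI 1d), all wild-type C57BL/6 females of 10 to 12 weeks, with 1 library per mouse. Sorted neurons came from 22 female Thy1YFP16 mice of 10 to 20 weeks, in which the Thy1 promoter drives YFP in large sensory neurons. Of these mice, 6 were naive, 8 had SNI and 8 had SCI, with 4 of either injury taken after 1 day (1d) and 4 after 3 days (3d). The labels name naive mice 1, 2 and 5 as controls of 1d and naive mice 3, 4 and 6 as controls of 3d. All 6 were pooled as 1 naive group in the comparisons of either day. SNI was a crush of the sciatic nerve, which cuts the peripheral axons of these cells. SCI was a transverse cut of the dorsal column of the thoracic cord, which cuts the ascending branch of their central axons. The paper states that the descending central branch is left intact. YFP-positive cells of the L4 DRG were collected by fluorescence-activated cell sorting in 3 wells of about 100 cells per mouse, and the reads of the 3 wells were summed, so that the mouse is the replicate. The labels put the sorted libraries in 2 sets, FACS (4 naive mice and 2 of each injured group) and FACS2018 (2 naive mice and 2 of each injured group). The labelled genotype of the sorted mice carries a different number in each library and was read as one line.

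On GRCm38, all 10 genes are annotated as protein coding. Pvalb (ENSMUSG00000005716.16) lies at chr15:78191114-78206400 and Ldhb (ENSMUSG00000030246.11) at chr6:142490249-142507957, both on the minus strand, as is Whrn (ENSMUSG00000039137.18) at chr4:63414910-63495991. On the plus strand lie Runx3 (ENSMUSG00000070691.10) at chr4:135120652-135177990, Etv1 (ENSMUSG00000004151.17) at chr12:38779380-38870484, Spp1 (ENSMUSG00000029304.14) at chr5:104435118-104441050 and Cntnap2 (ENSMUSG00000039419.17) at chr6:45059357-47304213. Calb1 (ENSMUSG00000028222.2) at chr4:15881264-15908064, Esrrg (ENSMUSG00000026610.13) at chr1:187608791-188214885 and Heg1 (ENSMUSG00000075254.11) at chr16:33684370-33771576 are on the plus strand too.

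Proprioceptors carry signals from muscle spindles and tendon organs, and low-threshold mechanoreceptors carry touch. Both have large cell bodies and thick myelinated axons, and their central branches run up the dorsal columns of the spinal cord. Runx3 and Etv1 are transcription factors that proprioceptors need to acquire and keep their identity, and Esrrg encodes an orphan nuclear receptor. Pvalb and Calb1 encode the calcium-binding proteins parvalbumin and calbindin. Ldhb encodes a subunit of lactate dehydrogenase, Spp1 the secreted phosphoprotein osteopontin, Cntnap2 an adhesion protein that holds potassium channels beside the node of Ranvier, Whrn the scaffold protein whirlin, and Heg1 a heavily glycosylated membrane protein. Ldhb and Spp1 are not restricted to neurons in the body, and Heg1 is also known from endothelial cells.

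The sequences upstream of Pvalb and Runx3 are shown because these genes rose and fell together over the wells described below and because Runx3 and Etv1, an ETS factor, are themselves among the 10 genes. Each is the 250 bases before a RefSeq start site, 5′ to 3′ on the strand of the gene, on GRCm38.p6. A listed window of either gene was printed only if it held some of the letters searched for below. The Pvalb window lies at chr15:78206401-78206650 on the minus strand and the Runx3 window at chr4:135120395-135120644 on the plus strand. Capitals mark the letters CCGGAA, which ETS factors bind, in Pvalb, and ACCACA, the reverse complement of the RUNX letters TGTGGT, in Runx3.
Pvalb: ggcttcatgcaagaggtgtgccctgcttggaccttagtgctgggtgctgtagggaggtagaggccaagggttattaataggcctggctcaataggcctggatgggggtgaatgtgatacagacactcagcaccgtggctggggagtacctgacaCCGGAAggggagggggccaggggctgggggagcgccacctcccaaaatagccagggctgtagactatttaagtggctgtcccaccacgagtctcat
Runx3: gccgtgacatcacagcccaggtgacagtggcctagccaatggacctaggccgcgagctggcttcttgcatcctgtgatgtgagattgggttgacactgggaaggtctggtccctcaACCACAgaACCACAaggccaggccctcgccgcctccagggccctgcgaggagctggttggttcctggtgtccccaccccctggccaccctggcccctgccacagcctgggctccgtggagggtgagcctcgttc
The match in Pvalb began 96 bases before the start, and the 2 matches in Runx3 began 134 and 126 bases before it and did not overlap. Promoters were listed for 9 of the 10 genes, in 17 windows of this length. On either strand, the RUNX letters were in 3 of the 17 windows (of Runx3, Etv1 and Spp1) and in 14.0% of all 32851 listed promoters. The ETS letters were in 2 of them (Pvalb and Spp1) and in 12.0% of all promoters, and AAGGTCA, which ERR receptors such as that of Esrrg bind, was in 0 of them and in 4.08% of all. These matches are a description of the letters in this window. Calb1 had no listed promoter.

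Whole DRG libraries held between 21959030 and 44493319 reads on genes, and the summed wells of a sorted mouse between 30518187 and 83599972. The wells were split into 2 kinds by their glial reads. In 20 of the 66 wells, reads of 9 glial genes made up 3.18% to 14.4% of all reads on genes, and a list of 8 pan-neuronal genes made up a median of 0.0230%. In the other 46 wells the glial share was 0.167% to 1.28% and the median neuronal share 2.88%. These 20 wells are called glia-rich here. The neuronal shares of the 2 kinds overlapped. It was 1.88% and 1.38% in glia-rich wells of SNI 3d mouse 3 and 1.14% in one of SCI 3d mouse 3. The only well of naive mouse 5 that was not glia-rich had 1.34%. Snap25, a synaptic gene of all neurons, had a median of 71.9 CPM (counts of a gene scaled to a common number of reads on genes) in the glia-rich wells against 9102 CPM in the other wells. Its highest glia-rich well had 5250 CPM and its lowest other well 1377 CPM. The glia-rich wells lay in 14 of the 22 mice, 6 of 18 wells in naive mice, 3 of 12 each in SNI 1d and SCI 1d and 4 of 12 each in SNI 3d and SCI 3d. All 3 wells of SNI 3d mouse 3 and SCI 3d mouse 3 were glia-rich, and so were 2 of the 3 wells of naive mice 5 and 6. Reads of 7 macrophage genes made up 2.46% to 6.51% in 4 of the glia-rich wells (2 of naive mouse 6 and 1 each of SNI 1d mouse 3 and SCI 3d mouse 3) and at most 0.226% in any other well. Reads of 5 fibroblast genes made up 1.37% to 5.80% in 5 of the glia-rich wells (2 of naive mouse 5 and all 3 of SCI 3d mouse 3) and at most 0.191% in any other. The tests on sorted neurons were therefore also run without the glia-rich wells. Those fits also leave out SNI 3d mouse 3, SCI 3d mouse 3 and the neuronal reads of the dropped wells. They keep wells with many nociceptor reads. Reads of 7 nociceptor genes made up 3.75% in the kept well of naive mouse 5 and 3.51% in one of SNI 1d mouse 4. In wells of SCI 1d mouse 4 they made up 1.82% and 1.49%. By mouse the share was 0.00352% to 1.59% in naive sorted mice and 0.270% to 0.322% in uninjured whole DRG. The part of RNA from other cells, nociceptors among them, in a result was not tested beyond these fits.

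In whole DRG of uninjured mice, the 10 genes spanned a wide range of levels per length, in reads scaled to library size and kilobases of exon (RPKM). Pvalb (median 134 RPKM, range 80.8 to 145) and Ldhb (126, range 97.5 to 128) stood highest, and their ranges overlapped. Spp1 (77.3 RPKM), Cntnap2 (27.9), Calb1 (11.7), Esrrg (6.14) and Etv1 (4.19) followed, each separated from the next by a gap between the 4 mice of either gene. Heg1 (2.27 RPKM) and Whrn (2.24) overlapped, and Runx3 was lowest at 0.803 RPKM. In naive sorted neurons the order of the medians was Ldhb (732 RPKM), Pvalb (427), Spp1 (395), Cntnap2 (55.9), Etv1 (10.0), Runx3 (5.10), Esrrg (2.86), Whrn (1.43), Calb1 (1.15) and Heg1 (0.156). There every neighbouring pair overlapped over the 6 mice, since the level of most genes differed widely between naive mice. Pvalb, for example, ranged from 1.61 to 1248 RPKM, and Ldhb from 667 to 1599 RPKM. The part of the Spp1 and Heg1 exons that also belongs to another annotated gene was 309 and 318 bases, and reads there cannot be assigned with certainty.

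The first comparison asks whether sorting raised the level of these genes over whole DRG. It was made between the 6 naive sorted mice and the 4 uninjured whole DRG mice with an exact two-sided permutation test on log2(CPM + 1), adjusted over 14459 genes, and on that scale the change of low genes is understated. Ldhb and Spp1 were higher in sorted neurons, Calb1 and Heg1 were lower, and the other 6 genes did not pass the threshold of an adjusted p under 0.1. The 4 calls stand beside 54.0% of all genes tested, 11.4% higher and 42.6% lower, so that 4 of 10 is not above the background. The median difference of the 10 genes was 0.68, beside -1.03 over all genes tested. Strain, age range, dissociation, library kit and removal of ribosomal RNA all differed between the 2 kinds of sample, and their effects cannot be told apart from that of sorting. In bulk samples, fewer cells of a type and less RNA per cell cannot be told apart either.

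Ldhb had the clearest difference. It measured 153, 201, 198 and 197 CPM in whole DRG, and in naive sorted neurons a lowest value of 1048, a median of 1148 and a highest value of 2510.2 CPM. The groups did not overlap, as for 8.89% of all genes in this direction. The difference was 2.91 on the log2(CPM + 1) scale (exact permutation p = 0.0048, the smallest that 210 splits can give, adjusted p = 0.019), and it was between 2.74 and 2.99 when any 1 mouse was left out and 2.75 without the glia-rich wells. Ldhb had a median of 1636 CPM in the glia-rich wells and of 1422 CPM in the other wells, and its lowest well of all 66 had 429 CPM.

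Spp1 measured 79.0, 120.3, 139 and 135 CPM in whole DRG and 135 to 1355 CPM, with a median of 650.2, in naive sorted neurons. The lowest naive mouse lay within the range of whole DRG, and the other 5 lay above it. The difference was 2.33 on the log2(CPM + 1) scale (exact permutation test, adjusted p = 0.045). Without the glia-rich wells it fell to 0.48 (adjusted p = 0.90) and was not called. The naive mice then ran from 1.61 to 1355 CPM with a median of 334 CPM, the lowest being mouse 5 with 1 well left. The cause of this move was not tested. In single wells, Spp1 had a median of 818 CPM in glia-rich wells and 617 CPM in the others.

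Calb1 and Heg1 were lower in the naive sorted neurons. Calb1 measured 40.0, 58.6, 56.6 and 56.4 CPM in whole DRG and 0.0175 to 42.8 CPM, with a median of 5.58, in naive sorted neurons, a difference of -3.47 (exact permutation test, adjusted p = 0.063). In this gene 1 naive mouse at 42.8 CPM reached the range of whole DRG and the other 5 lay under 20 CPM. Heg1 measured 29.0, 25.4, 28.9 and 29.2 CPM in whole DRG and 0.0525 to 24.1 CPM, with a median of 1.98, in naive sorted neurons, a difference of -2.74 (exact permutation test, adjusted p = 0.038). Its groups did not overlap, as for 37.9% of all genes in this direction. Neither gene was called after TMM scaling (Calb1 -2.92, adjusted p = 0.12, and Heg1 -2.10, adjusted p = 0.20), and Heg1 was called in 4 of the 10 fits that each left out 1 mouse. Both differences stayed near their size without the glia-rich wells (-3.38 and -2.51, both called).

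Pvalb, Runx3, Etv1 and Cntnap2 had higher medians in sorted neurons, and Whrn and Esrrg lower ones, without passing the test. Pvalb measured 84.1, 151, 136 and 143 CPM in whole DRG and 1.68 to 1299 CPM in naive sorted neurons, and 4 of the 6 naive mice lay above all whole DRG mice and 1 far below them (difference 0.74, adjusted p = 0.81). Runx3 measured 4.60, 4.16, 3.80 and 3.88 CPM in whole DRG, and 20.0, 2.41, 53.8, 31.0, 0.105 and 48.8 CPM in naive mice 1 to 6 (difference 1.44, adjusted p = 0.34). Etv1 differed by 1.07 (adjusted p = 0.25) and Cntnap2 by 0.61 (adjusted p = 0.42). Cntnap2 was called higher without the glia-rich wells, with a difference of 1.15 (exact permutation test, adjusted p = 0.077). Without naive mouse 5, the mouse with the lowest level of both genes, Runx3 was called at 2.17 (adjusted p = 0.081) and Cntnap2 at 1.04 (adjusted p = 0.033). Whrn and Esrrg had negative differences of -1.47 (adjusted p = 0.39) and -1.77 (adjusted p = 0.29). Whrn had 0 reads in naive mouse 5, which allows up to 0.0525 CPM by counting error, and up to 26.0 CPM in the others. By TMM scaling over the 10 mice, 4 of the 10 genes were called higher (Ldhb, Spp1, Etv1 and Cntnap2) and 0 lower, and of all genes 2555 were called higher and 3759 lower, against 1642 and 6160 on library totals. The median over all genes then moved from -1.03 to -0.33.

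The 2 sets of naive mice did not look alike. Relative to whole DRG, the mean of the 4 FACS mice and that of the 2 FACS2018 mice differed in sign for Pvalb (1.65 and -1.10) and Cntnap2 (1.24 and -0.63). For Ldhb they were 2.76 and 3.22, for Spp1 2.93 and 1.12, for Calb1 -2.38 and -5.67, for Esrrg -0.52 and -4.27 and for Heg1 -2.02 and -4.17. With 2 mice in 1 set, no test within a set was made.

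**Figure D1:**
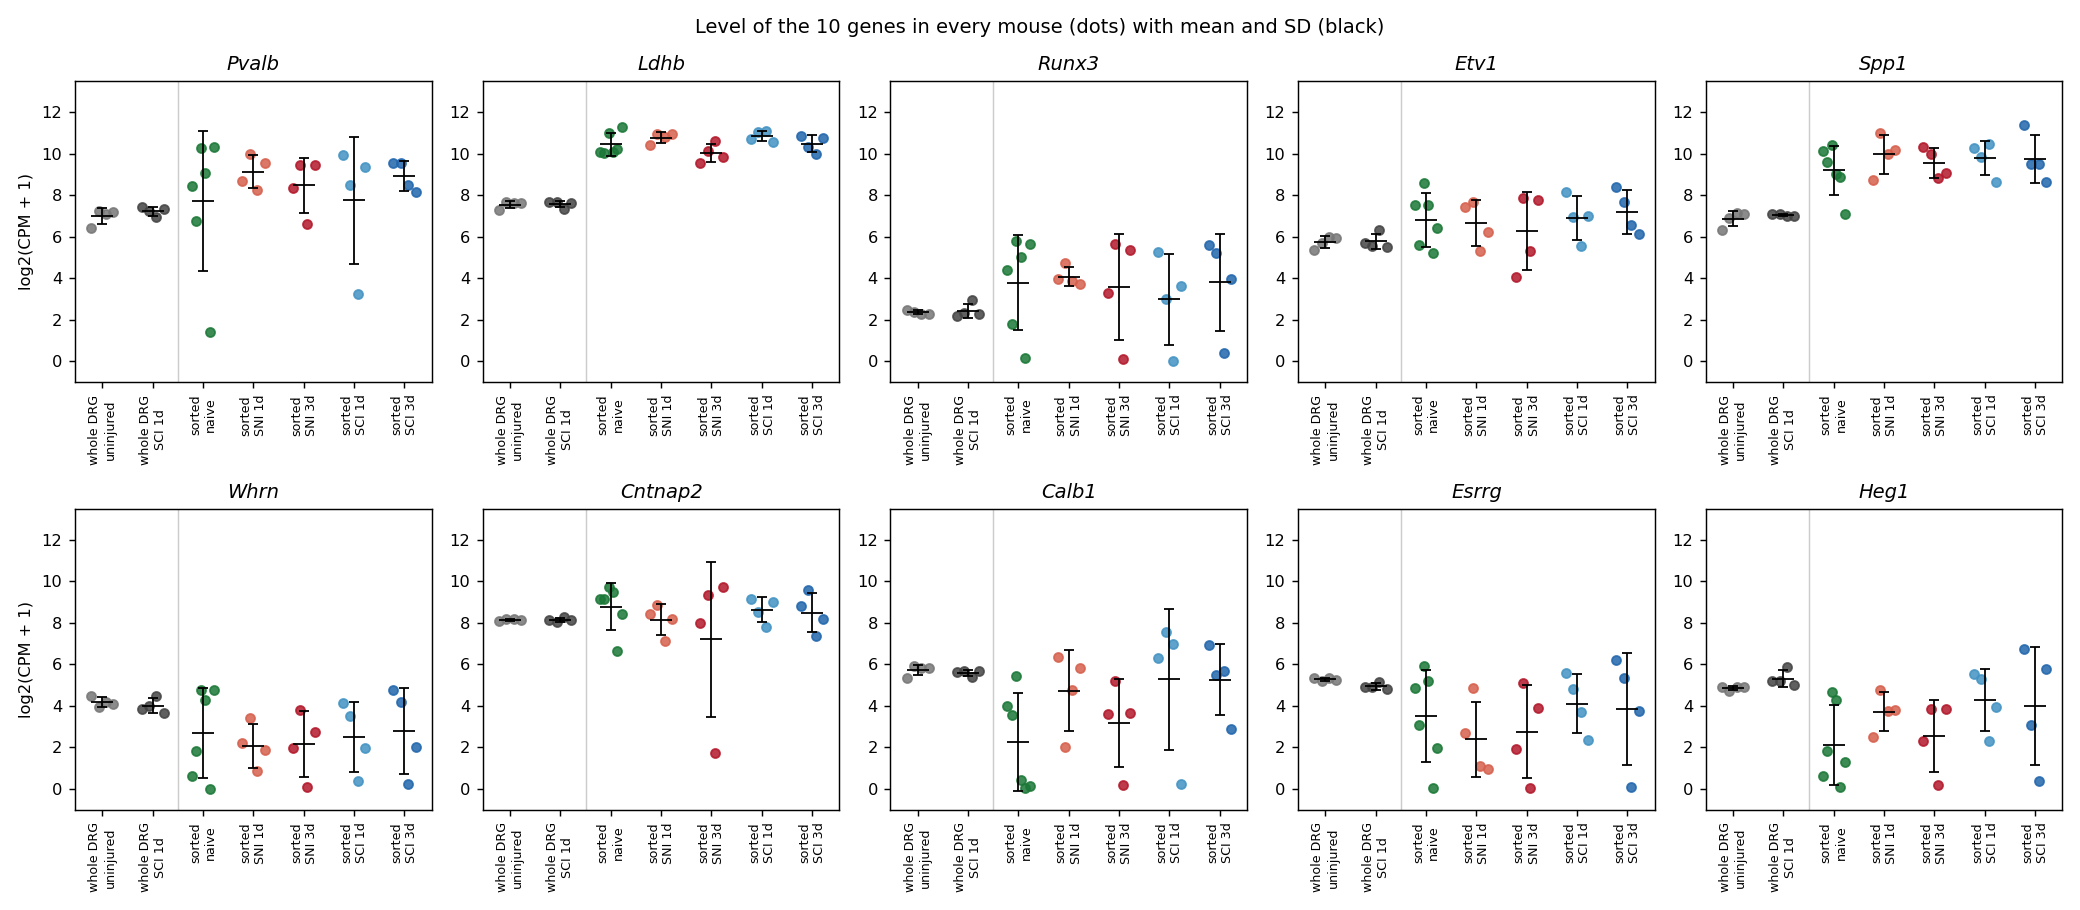
Level of each of the 10 genes in every mouse, as log2(CPM + 1), with the mean and SD of the 7 groups (4 mice each, 6 in sorted naive). Ldhb lies at 153 to 204 CPM in whole DRG and at 748 CPM or more in all sorted mice. All 10 genes have a wider range in every group of sorted mice than in either group of whole DRG.

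The spread between sorted mice had its counterpart between wells of about 100 cells. Over the 46 wells that were not glia-rich, Ldhb and Cntnap2 were present throughout, at 429 to 4035 CPM and 112 to 1619 CPM. Spp1 had at least 10 CPM in 45 wells and at least 100 CPM in 39, with a median of 617 CPM. Pvalb reached 100 CPM in 34 of the 46 wells, with a median of 672 CPM and a lowest well of 0.827 CPM, and Etv1 reached 10 CPM in 39, with a median of 121 CPM. The other 5 genes were near zero in some wells. Runx3 had at least 1 CPM in 33 wells and Whrn in 29, and each of the 29 wells with Whrn also had Runx3. Calb1 had at least 1 CPM in 34 wells, with a highest value of 420.3 CPM, Esrrg in 37 and Heg1 in 39. A count of 3 reads in a well corresponds to 0.0612 to 2.01 CPM, depending on its depth. Within a mouse, the wells of 1 sort differed by a median of 4.10 on the log2(CPM + 1) scale for Pvalb, 3.69 for Calb1, 3.19 for Runx3 and 2.90 for Etv1, but by 0.92 for Ldhb and 1.12 for Cntnap2 (18 mice with at least 2 such wells).

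**Figure D2:**
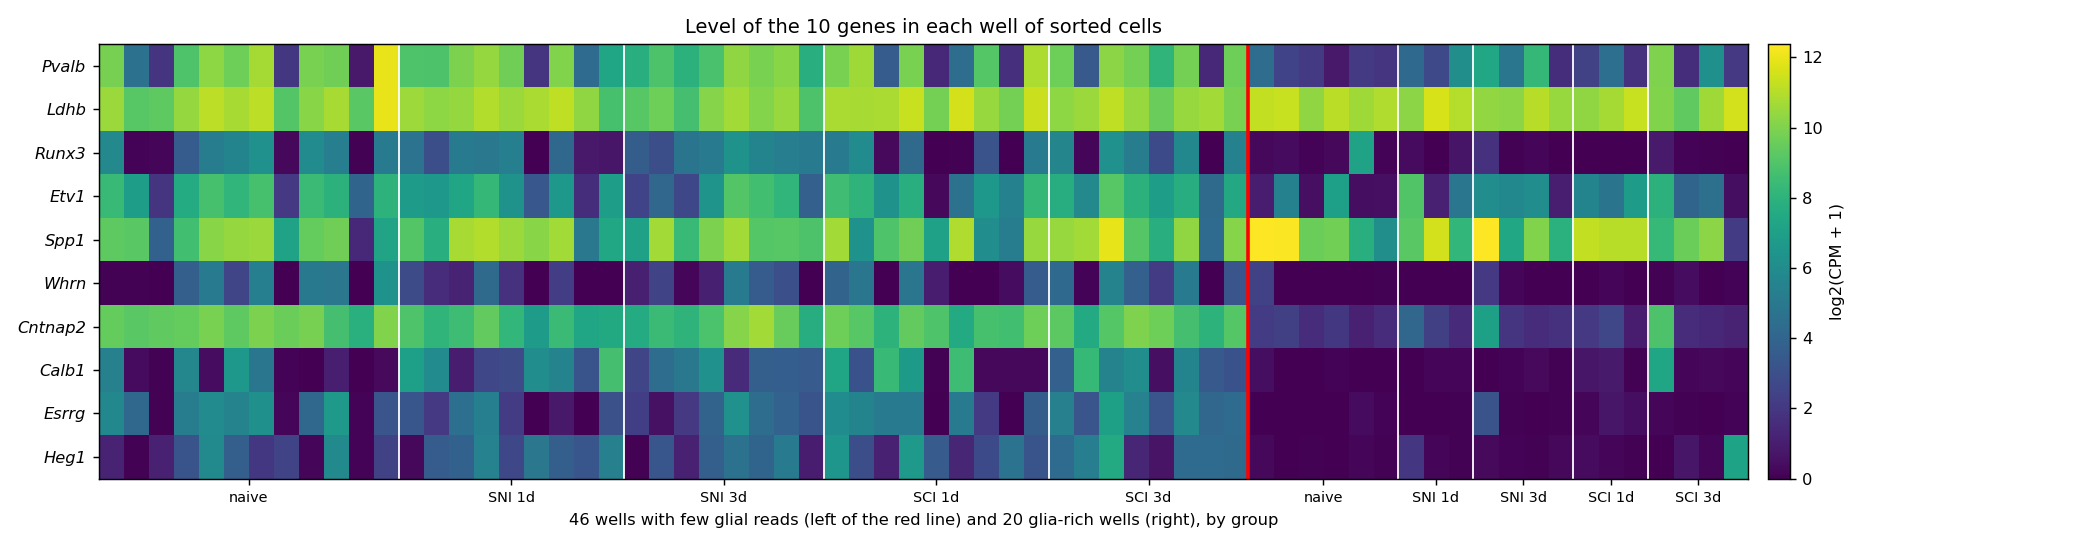
Level of the 10 genes in each of the 66 wells (columns, ordered by group within either kind of well), as log2(CPM + 1) by colour. Left of the red line are 46 wells with few glial reads, where Ldhb and Cntnap2 are present in all and Pvalb, Runx3, Etv1, Whrn and Esrrg tend to be high in the same wells, and right of it 20 glia-rich wells, where Ldhb and Spp1 stay high.

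In the glia-rich wells, Cntnap2 had a median of 2.51 CPM, with 2 of 20 wells above 100 CPM, Pvalb a median of 5.12 CPM and Etv1 27.5 CPM. Runx3 and Whrn had at least 1 CPM in 2 of these wells each, Heg1 in 2, and Calb1 and Esrrg in 1 each. The highest Runx3 of all 66 wells, 139 CPM, was in a glia-rich well of naive mouse 6 with 6.51% macrophage reads, and the only well of that mouse that was not glia-rich had 33.2 CPM. The part of macrophage RNA in this value was not tested.

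Pvalb, Runx3, Etv1, Whrn and Esrrg varied together over the 46 wells. Spearman's rho of the 10 pairs among these 5 genes was between 0.62 and 0.85 with a median of 0.79, highest for Pvalb with Etv1, against a median of 0.46 over all 45 pairs of the 10 genes. Cntnap2 also had high rho to some of them, 0.72 to Etv1, 0.67 to Whrn and 0.64 to Pvalb, with 0.54 to Runx3 and 0.48 to Esrrg. Calb1 had low rho to most of these genes, with rho of -0.01 to Pvalb, 0.07 to Runx3 and -0.03 to Whrn, and -0.28 to Cntnap2. Heg1 had its highest rho to Spp1 (0.42). The 5 genes were chosen after these values were seen, and wells of 1 mouse share their animal and labelled set. The values are a description with no test.

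**Figure D3:**
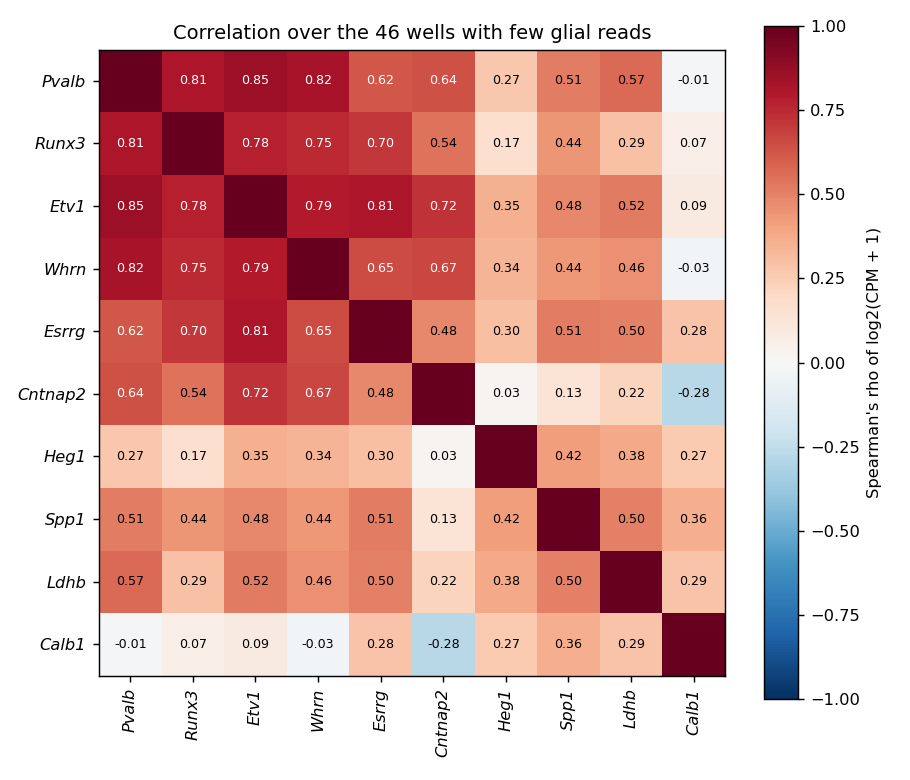
Spearman's rho between the 10 genes over the 46 wells with few glial reads, computed on log2(CPM + 1). The block of Pvalb, Runx3, Etv1, Whrn and Esrrg lies between 0.62 and 0.85, and Calb1 lies near 0 to Pvalb, Runx3, Etv1 and Whrn.

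Over all 66 wells and 13812 genes with a mean of at least 20 reads per well, the 5 genes most like Pvalb were Smpx (rho 0.91), Kcnip2 (0.89), Clec2l (0.88), Aldoc (0.82) and Cux2 (0.82). Kcnip2 encodes a protein that binds potassium channels, and Aldoc a glycolytic aldolase. Those most like Ldhb were the mitochondrial respiratory genes Ndufv2 (0.66), mt-Nd1 (0.61), mt-Cytb (0.60) and Ndufa13 (0.55), and Ppt1 (0.56), which encodes a lysosomal thioesterase. The rules that picked these genes used the values themselves, and glia-rich wells are among the points.

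The second comparison asks whether SCI changed these genes in whole DRG after 1 day. By edgeR's quasi-likelihood test over 17616 genes, 1 of the 10 genes was called, Esrrg, which was lower, beside 2.32% of all genes called and 0.937% called lower. Esrrg measured 39.0, 35.4, 40.0 and 37.2 CPM in uninjured mice and 29.0, 28.6, 34.7 and 26.7 CPM after SCI. All 4 SCI mice lay below all uninjured mice, as for 5.15% of all genes in this direction, and the log2 fold change was -0.36 (SE 0.088, edgeR, adjusted p = 0.091). The call was close to the threshold: the adjusted p was between 0.12 and 0.25 in 7 of the 8 fits that left out 1 mouse, and 0.024 without SCI mouse 3, whose 34.7 CPM was nearest to the controls. DESeq2 called it as well (adjusted p = 0.014).

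Heg1 was the other gene without overlap between the groups, with 29.0, 25.4, 28.9 and 29.2 CPM in uninjured mice and 35.6, 35.2, 58.3 and 30.7 CPM after SCI. Groups did not overlap in this direction for 5.48% of all genes. SCI mouse 3 was far above the others, and the log2 fold change of 0.50 (SE 0.17, edgeR) had an adjusted p of 0.22. The remaining 8 genes had log2 fold changes between -0.19 and 0.21 and adjusted p of at least 0.50. Pvalb measured 172, 147, 122 and 160.3 CPM after SCI (0.21, SE 0.17), Ldhb 202, 204, 163 and 194 CPM (0.01, SE 0.099) and Cntnap2 284, 265, 307 and 278 CPM (-0.02, SE 0.062). Runx3 was at 6.67 CPM in SCI mouse 3 and between 3.57 and 4.06 CPM in the other SCI mice, and the same mouse had the highest Etv1 (79.0 CPM) and Whrn (21.5 CPM) of its group.

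**Figure D4:**
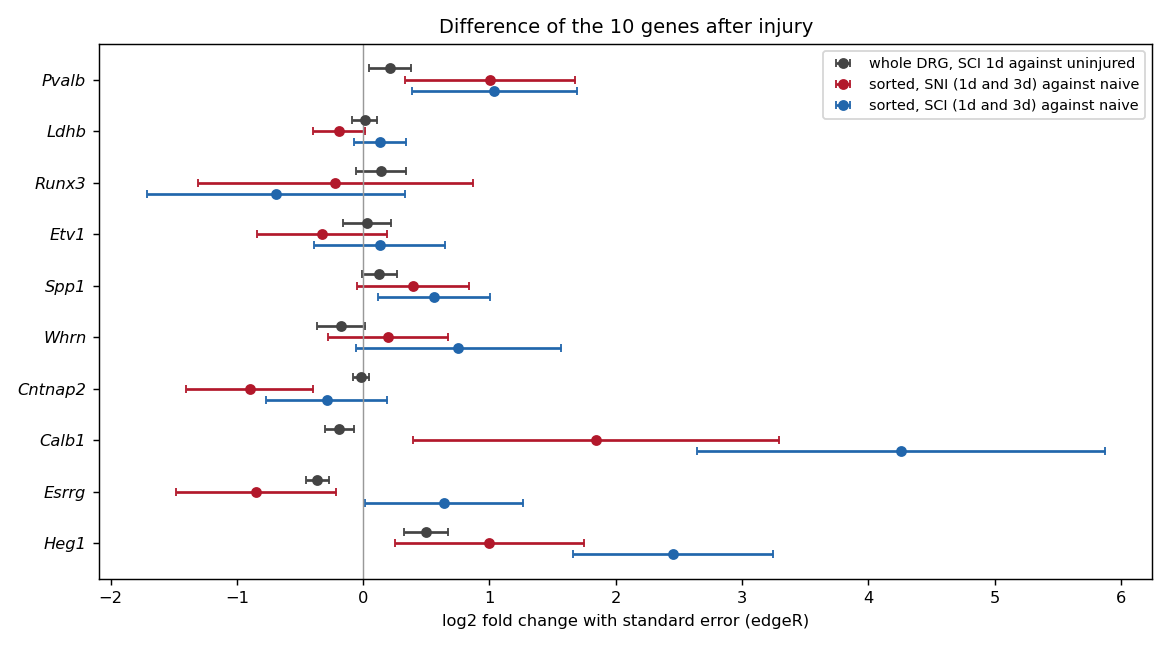
Log2 fold change of the 10 genes from edgeR (points) with an approximate standard error derived from its F-test (bars). Shown are SCI 1d in whole DRG and SNI and SCI in sorted neurons, each the mean of 1d and 3d. Standard errors are at most 0.20 in whole DRG and reach 1.61 for Calb1 in sorted neurons, and no value from sorted neurons passed the threshold.

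In sorted neurons, the comparison asks whether either injury lowered the genes. edgeR's quasi-likelihood test over 23507 genes, with 2 RUVr factors, called 0 of the 10 genes after SNI, at 1d, at 3d or in the mean of both days, and 0 after SCI at any of these. At an unadjusted p under 0.05 there were 1 at SNI 1d, 1 at SNI 3d, 0 in the mean of SNI, 2 at SCI 1d, 2 at SCI 3d and 2 in the mean of SCI. Among all 23507 genes there were, in the same order, 3519, 2992 and 3267 for SNI and 2981, 2208 and 2257 for SCI. Of all genes, 0.685% were called at SNI 1d, 0.706% at SNI 3d and 0.927% in the mean of SNI, and 0.0170% at SCI 1d, 0.00% at SCI 3d and 0.00425% in the mean of SCI. No gene of the 10 had injured mice all outside the range of the naive mice in any of these comparisons, while 1.85% of all genes did at SNI 1d, 1.20% at SNI 3d, 0.562% at SCI 1d, 0.306% at SCI 3d and, over both days, 0.357% after SNI and 0.0298% after SCI. The median log2 fold change of the 10 genes was 0.0037 after SNI and 0.60 after SCI, beside 0.096 and 0.12 over all genes tested. Standard errors of the single genes in the 2 means ran from 0.21 for Ldhb to 1.61 for Calb1, so that a change of a few-fold was within the error for most of them.

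The 5 genes with a negative log2 fold change after SNI were Cntnap2, Esrrg, Etv1, Runx3 and Ldhb. Cntnap2 had the lowest p. It measured 98.7 to 842 CPM with a median of 573 in naive mice, 338, 471, 139 and 291 CPM at SNI 1d and 254, 642, 2.35 and 851 CPM at SNI 3d. The mean of both days was -0.90 (SE 0.50, edgeR, adjusted p = 0.44), and both sets had the same sign (-0.74 in FACS and -0.82 in FACS2018 on log2(CPM + 1)). The lowest naive value was that of mouse 5 and the lowest of SNI that of SNI 3d mouse 3, both with mostly glia-rich wells. The only other well of naive mouse 5, with 3.75% nociceptor reads, had 229.9 CPM, the lowest naive value without the glia-rich wells. Without naive mouse 5 the fall passed the threshold, at -1.49 (adjusted p = 0.032) for the mean and -1.78 (adjusted p = 0.025) at SNI 3d. In that fit 388 of 23428 genes were called lower in the mean and 649 at SNI 3d, against 60 and 43 of 23507 with all mice. The median over all genes at SNI 3d was -0.29 there, against -0.013 with all mice. Without the glia-rich wells it passed at SNI 1d (-0.99, adjusted p = 0.073), with 400.1, 564, 197 and 291 CPM against 229.9 to 1038 CPM in naive mice, and neither at SNI 3d (-0.35, adjusted p = 0.57) nor in the mean (-0.67, adjusted p = 0.12).

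Esrrg measured 0.0350 to 60.1 CPM with a median of 17.8 in naive mice and 0.0342 to 33.8 CPM with a median of 4.11 over the 8 SNI mice, a mean log2 fold change of -0.85 (SE 0.63, edgeR, adjusted p = 0.60). Etv1 had medians of 133 CPM in naive mice and 123 CPM after SNI (-0.33, SE 0.51) and Runx3 of 25.5 and 14.0 CPM (-0.22, SE 1.09). Neither difference was larger than the spread between mice. On log2(CPM + 1) the 2 sets differed in sign for Esrrg (-1.12 in FACS and 0.49 in FACS2018) and Etv1 (-0.57 and 0.35), and Runx3 was positive in both (0.16 and 0.37). The fitted value of Runx3 was positive in 3 of the 10 alternatives other than leaving out a mouse. Ldhb had a median of 1148 CPM in naive mice, and measured 1364, 1999, 1761 and 1962 CPM at SNI 1d and 748, 1099.7, 1545 and 919.6 CPM at SNI 3d. Both sets were slightly negative over both days (-0.04 and -0.22). At SNI 3d its log2 fold change was -0.53 (SE 0.25, edgeR, adjusted p = 0.38), and without the glia-rich wells it passed the threshold there at -0.67 (adjusted p = 0.094), a fit in which SNI 3d keeps 3 mice.

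Pvalb measured 416, 1018, 303 and 748 CPM at SNI 1d and 326, 694, 98.2 and 708 CPM at SNI 3d, against 346, 107, 1234, 543, 1.68 and 1299 CPM in naive mice. All 8 SNI mice lay within the naive range. Its log2 fold change was 1.00 (SE 0.67, edgeR, adjusted p = 0.54), positive in both sets (0.49 and 2.59), but negative in 4 of the 10 alternatives, down to -0.55, so that no direction can be given. The same holds for Whrn, at 0.20 (SE 0.47), with medians of 10.5 CPM in naive mice and 3.27 CPM after SNI and a negative value in 7 of 10 alternatives and in both sets (-0.01 and -0.99).

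Spp1, the secreted phosphoprotein, had a median of 650.2 CPM in naive mice and measured 427, 2052, 1006 and 1149 CPM at SNI 1d and 1283, 1019, 449 and 529 CPM at SNI 3d. The log2 fold change of the mean was 0.39 (SE 0.44, edgeR, adjusted p = 0.77). Without the glia-rich wells it was higher after SNI, at 2.30 (adjusted p = 0.027) at SNI 1d and 1.87 (adjusted p = 0.033) in the mean, where the median over all genes stood at 0.40 and 0.44. In that fit the naive mice measured 613, 106, 1355, 518, 1.61 and 150.05 CPM, the lowest from mouse 5, with 1 well left, and the 7 SNI mice 397 to 1876 CPM. An exact permutation test on the same wells, added after the data were seen, did not call it (2.49, adjusted p = 0.37). Calb1 (1.85, SE 1.45) and Heg1 (1.00, SE 0.75) had positive values after SNI, with adjusted p of 0.62 and 0.60, and were positive in both sets (Calb1 0.93 and 3.54, Heg1 0.52 and 2.21), as was Spp1 (0.22 and 1.52).

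After SCI, 8 of the 10 genes had a positive log2 fold change and 2 a negative one, Runx3 (-0.69, SE 1.02) and Cntnap2 (-0.29, SE 0.48), so that no lowering was detected at this spread between mice. Of 8 injury response genes (Atf3, Jun, Sprr1a, Gal, Npy, Sox11, Ecel1 and Gap43), the same fit called 0 after SCI. It called 3 of them higher in the mean of SNI. Their median log2 fold change was 0.49 in the mean of SCI and 3.22 in the mean of SNI. In whole DRG after SCI, 2 of the 7 tested were called higher. The exact permutation test on log2(CPM + 1) called 0 of the 10 genes after SNI or SCI as well. Calb1 and Heg1 had the largest values. Calb1 measured 77.2, 187, 127 and 0.188 CPM at SCI 1d and 123, 44.5, 50.9 and 6.46 CPM at SCI 3d, against 15.0, 10.8, 42.8, 0.330, 0.0175 and 0.0839 CPM in naive mice. In 6 of the 8 SCI mice it was above the highest naive mouse, and the log2 fold change was 4.26 (SE 1.61, edgeR, p = 0.016, adjusted p = 0.49). Heg1 measured 45.4, 38.5, 4.02 and 14.4 CPM at SCI 1d and 107, 7.33, 0.318 and 53.3 CPM at SCI 3d, against 0.0525 to 24.1 CPM in naive mice, with a log2 fold change of 2.45 (SE 0.79, edgeR, p = 0.0057, adjusted p = 0.45). Both were of the same sign in the 2 sets (Calb1 3.22 and 3.89, Heg1 2.33 and 2.42 on log2(CPM + 1)), and DESeq2 with the same factors called both higher in the mean of SCI (adjusted p = 0.0024 and 0.022). The adjusted p of either gene in edgeR stayed between 0.22 and 0.70 when any 1 mouse was left out.

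The other genes did not move beyond their spread after SCI. Pvalb measured 972, 355, 8.45 and 661 CPM at SCI 1d and 747, 746, 359 and 283 CPM at SCI 3d (1.04, SE 0.65, edgeR, adjusted p = 0.65), and was negative in 4 of the 10 alternatives. Ldhb measured 1686, 2075, 2200.0 and 1521 CPM at SCI 1d and 1839, 1258, 1013 and 1749.5 CPM at SCI 3d (0.13, SE 0.21). Spp1 was at 1247, 920.2, 1409 and 399 CPM at SCI 1d and at 2665, 725, 723 and 401 CPM at SCI 3d (0.56, SE 0.44). Etv1 (0.13, SE 0.52), Whrn (0.75, SE 0.81) and Esrrg (0.64, SE 0.63) had adjusted p of at least 0.81, and the values of Etv1 and Whrn were negative in 2 and 5 of the 10 alternatives. In the FACS and FACS2018 sets the differences after SCI were of unlike sign for Whrn (1.27 and -1.23), Runx3 (0.52 and -0.88), Cntnap2 (-0.37 and 0.57) and Ldhb (0.42 and -0.16), and positive in both for Pvalb (0.74 and 1.43), Esrrg (0.73 and 1.46), Etv1 (0.47 and 0.50) and Spp1 (0.46 and 1.33).

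The 2 injuries were also compared with each other, over the mean of both days. Their own comparisons share the 6 naive mice, so the difference was taken directly between the 8 SNI and the 8 SCI mice. edgeR called 0 of the 10 genes, beside 0.0978% of all genes. At an unadjusted p under 0.05 there were 2966 of all 23507 genes and 2 of the 10. These were Esrrg, with a median of 4.11 CPM after SNI and 19.9 CPM after SCI (log2 difference of SNI to SCI -1.49, SE 0.56, adjusted p = 0.30), and Heg1, with medians of 12.9 and 26.4 CPM (-1.46, SE 0.68, adjusted p = 0.38). DESeq2 called Esrrg (adjusted p = 0.092). Of the 10 differences, 9 were negative, with a median of -0.50 beside -0.04 over all genes tested. Those of Pvalb (-0.04, SE 0.61) and Spp1 (-0.17, SE 0.40) changed sign in some alternatives.

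Of 11 other genes known from large-fibre neurons (Ntrk3, Ntrk2, Ret, Maf, Mafa, Slc17a7, Nefh, Piezo2, Cacna1h, Kcna1 and Necab2), 8 were lower in naive sorted neurons than in whole DRG, 0 were higher and 3 did not pass the test, with a median difference of -2.70. Of all genes tested 42.6% were lower and 11.4% higher, with a median of -1.03. The number of the 11 that were lower was 5 without uninjured mouse 1 and 10 without naive mouse 5. After TMM scaling 7 were lower and 1, Maf, was higher, with a median of -2.17. They include Ret, the signalling receptor of the GDNF family (-3.96, adjusted p = 0.038), and Piezo2, the channel of light touch and proprioception (-1.79, adjusted p = 0.029). Those not called were Ntrk3, the neurotrophin-3 receptor of proprioceptors (-1.86, adjusted p = 0.24), the neurofilament gene Nefh (-1.92, adjusted p = 0.15) and the transcription factor Maf (1.82, adjusted p = 0.13), all by the exact permutation test. In whole DRG after SCI edgeR called 0 of the 11, with 9 negative values and a median of -0.05. Ntrk2 (-0.30) and Necab2 (-0.24) had an unadjusted p under 0.05, beside 2570 of all 17616 genes. In sorted neurons 10 of the 11 were tested. After SNI 1 of them was called in the mean of both days, Kcna1, a potassium channel of myelinated axons, which was lower (-1.21, SE 0.30, edgeR, adjusted p = 0.081). After SCI 0 were called, with Ntrk3 at an unadjusted p under 0.05 (1.52, SE 0.68). In the mean of SCI 2257 of all 23507 genes had such a p. Kcna1 was not called without covariates or with the set as a term, nor without the glia-rich wells (-0.17, edgeR, adjusted p = 0.69). In that last fit Ntrk3, Ret and Slc17a7, a vesicular glutamate transporter, were called higher after SNI and Maf lower, beside 2499 of 22620 genes called, and the median of the 10 tested was 0.0074 beside 0.44 over all genes. At SNI 1d the same fit called 4 of them higher (Ntrk2, Ntrk3, Ret and Slc17a7) and 0 lower, beside 1848 of all genes, and after SCI it called 0.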

How the data were processed

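Reads were made into counts by the authors, who trimmed them with Cutadapt and PRINSEQ, aligned them with STAR 2.5.3a to GRCm38 (mm10) and counted them per gene with HTSeq 0.6.1. The deposited count values are whole, unscaled reads on 53379 genes, in 74 libraries. Another 5 lines per library name no gene (33.1% to 66.9% of all counts) and were dropped. Deposited tables of the authors' own fold changes and p-values, with 123 columns of normalized values per sample, were not used.

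Groups were taken from the sample labels. The 10 genes, the gene lists and the limit of 2% glial reads were chosen with earlier results of these data known. In whole DRG, genes with a mean of at least 10 reads were tested with edgeR 4.0.16 (R 4.3.3, TMM, quasi-likelihood F-test). For sorted neurons, the 3 technical wells were added up per mouse, a gene needed 20 reads in some mouse to be tested, and 2 RUVr factors were taken from centred deviance residuals. Naive sorted neurons and whole DRG were compared by exact permutation on log2(CPM + 1), for genes with a mean of at least 1 CPM. Adjusted p-values are by Benjamini-Hochberg over all genes tested, with a threshold of 0.1. The test of edgeR gives no standard error. Each SE is therefore the absolute log2 fold change divided by the square root of the F-value, an approximation. It can be uneven for genes with low counts, as for Whrn, with 0.25 at SNI 1d and 0.84 at SCI 1d. Named beside the 10 genes were the 5 genes with the highest Spearman correlation to Pvalb and to Ldhb over the wells. A list of 11 large-fibre genes and a list of 8 injury response genes were named too. Alternatives used DESeq2 1.42.0, limma 3.58.1 and other scalings, filters, covariates and sets of mice. Each test was checked on simulated data. For the permutation test this was done at an unadjusted p under 0.05, so its adjusted threshold was not checked. The biological coefficient of variation between sorted mice was 1.20, and how well the tests perform at that spread was not tested. Genes were named by GENCODE vM21 (53274 identifiers matched), which also gave the exon lengths. Tables and plots were made in Python 3.11.15 (pandas 2.3.3, numpy 2.4.6, matplotlib 3.10.9, scipy 1.17.1). The study removed outlier mice, and since the labels do not name them all 22 were kept. Intervals and limits of low counts cover counting error only.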

Additional observations from a re-analysis of the deposited data

Results flagged for a closer look

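Of 70 sets of values (10 genes in 7 groups), 3 held a mouse that stood far from the others by Dixon's ratio of its gap to the range of its group, on log2(CPM + 1), all in uninjured whole DRG, where chance gives about 1 in 20. In mouse 1, Ldhb was at 153 CPM and the others at 197 to 201 CPM (ratio 0.931). In the same mouse, Calb1 was at 40.0 CPM and the others at 56.4 to 58.6 CPM (ratio 0.901). In mouse 2, Heg1 was at 25.4 CPM and the others at 28.9 to 29.2 CPM (ratio 0.924).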

How the results depend on the processing

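For the limit set by depth, 3 reads in a well correspond to 0.0612 to 2.01 CPM. Among sorted mice, no comparison called more than 2 of the 10 genes in any alternative. The number of the 10 genes called moved from 4 to 7 for naive sorted neurons against whole DRG with limma with group variances, which called 9052 of all 14459 genes. It moved from 0 to 1 (mean of SNI), 2 (SNI 1d) and 1 (SNI 3d) without the glia-rich wells, beside 2499, 1848 and 1712 of all 22620 genes. DESeq2 moved it from 0 to 2 (mean of SCI), 1 (SCI 1d), 2 (SCI 3d) and 1 (SNI against SCI), beside 1232, 1223, 1202 and 1723 of all 23507 genes, where edgeR called 1, 4, 0 and 23. When 1 mouse was left out it was 0 to 1 in whole DRG, 3 to 6 for naive sorted neurons against whole DRG and 0 to 1 for the mean of SNI and for SNI 3d, and 0 in the other sorted comparisons. The cause of these moves was not tested. Over all genes, the exact permutation test with all wells called 0 in the sorted comparisons, with 530 to 1575 genes at an unadjusted p under 0.05.

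Mice of the same number were not treated as paired, since not every pair of them deviated together by a correlation over 0.1. In whole DRG these correlations were -0.23, 0.10, -0.12 and 0.33. In sorted neurons 32 of 48 same-numbered pairs of 1 set were over 0.1, with a median of 0.118 against -0.050 in the other 144 pairs, a hint from the data and not from the design. With the replicate block, 0 of the 10 genes were called in whole DRG, Esrrg having an adjusted p of 0.15, and 127 of all genes were called in place of 408. In sorted neurons the block gave -0.55 (SNI) and -0.54 (SCI) for Pvalb, -2.64 and -1.86 for Whrn, and 0.030 for Spp1 in SNI against SCI, all of the opposite sign, and it called none of the 10 genes, as did the fit without it. For naive sorted neurons against whole DRG, no paired analysis was possible because the mice are different animals of different strains.

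After SNI (mean of both days), Pvalb was -0.52 with residuals not centred, -0.31 without covariates and -0.31 with the set as a term, and Whrn was -2.14, -1.56 and -1.86 in the same fits, -0.54 with DESeq2, -0.58 by the permutation test and -0.39 by that test without glia-rich wells. Ldhb was 0.071 with residuals not centred and 0.023 by permutation without glia-rich wells. Runx3 was 0.93 without glia-rich wells, 0.040 by permutation and 0.78 by permutation without glia-rich wells. After SCI, Pvalb was -0.45, -0.28 and -0.30 and Whrn -1.21, -0.56 and -1.19 in the fits with residuals not centred, without covariates and with the set as a term, and Whrn was -0.061 by permutation. Ldhb was -0.0024 with the set as a term, Runx3 0.60 without glia-rich wells and 0.22 by permutation without them, and Etv1 -0.26 with residuals not centred and -0.048 without glia-rich wells. In SNI against SCI without glia-rich wells, Pvalb was 0.19 and Spp1 0.045.

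Leaving out 1 mouse at a time also turned signs. In whole DRG the values then ran from -0.063 to 0.090 for Ldhb, -0.12 to 0.24 for Runx3, -0.18 to 0.12 for Etv1, -0.013 to 0.21 for Spp1 and -0.047 to 0.020 for Cntnap2. After SNI they ran from -0.47 to 1.55 for Pvalb, -1.40 to 0.53 for Runx3, -0.59 to 0.061 for Etv1 and -2.27 to 0.90 for Whrn. After SCI they ran from -0.44 to 1.65 for Pvalb, -0.022 to 0.32 for Ldhb, -1.23 to 0.39 for Runx3, -0.15 to 0.51 for Etv1, -1.13 to 2.06 for Whrn and -0.44 to 1.46 for Esrrg. In SNI against SCI they ran from -0.32 to 0.16 for Pvalb, -0.18 to 0.98 for Runx3 and -0.36 to 0.16 for Spp1. In sorted neurons, Calb1 and Heg1 kept their positive sign after SNI and SCI, and Cntnap2 its negative sign, in all of these fits.

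Counts over all genes depended on the tool. DESeq2 called 929 genes in whole DRG and 1202 to 2447 in the sorted comparisons, edgeR 408 and 0 to 218, edgeR without covariates 0 to 1, with the set as a term 0 to 5, with the replicate block 0 to 4, with residuals not centred 0 to 11, and without glia-rich wells 0 to 2499. When 1 mouse was left out, edgeR called 104 to 640 genes in whole DRG, 36 to 917 in the mean of SNI (218 with all mice), 9 to 896 at SNI 3d (166), 30 to 592 at SNI 1d (161), 4 to 226 in SNI against SCI (23), 1 to 30 at SCI 1d (4), 0 to 19 at SCI 3d (0) and 1 to 12 in the mean of SCI (1). The exact permutation test without glia-rich wells was chosen after seeing the data.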
